A study of Mus musculus with 6 samples.

Results

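Tissue-resident macrophages are the long-lived macrophages of an organ, and in white fat many of them lie along vessels. They are recognized by receptors for dead cells, folate, hyaluronan, mannose and galactose, and they take up debris and soluble material from the tissue. The genes described here are 10 such markers: Timd4, Lyve1, Folr2, Mrc1, Cd163, F13a1, Gas6, Cbr2, Mgl2 and Clec10a. They were picked by symbol, with earlier results of these data known. All 10 were among the 16538 genes listed for inguinal white adipose tissue (iWAT), and all 10 passed the filter that left 13855 genes for testing. The question was whether Timd4, a receptor for phosphatidylserine on dying cells that is used as a mark of long-lived resident macrophages, was higher together with the other 9. The study had already reported Timd4 as upregulated in its mutant mice from the same RNA-Seq, so the question was not independent of these data.

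Bulk RNA-Seq had been done on iWAT, a subcutaneous fat depot of mice, after cold acclimation at 8°C for 10 days, the period given in the sample labels (the text of the study gives a longer one). The control group was 3 samples labelled wt, and the AKO group was 3 samples labelled NRG4-AKO, from mice lacking Nrg4, a secreted growth factor, in adipocytes. The control mice are elsewhere called fl/fl, that is, with the Nrg4 gene floxed but intact. In the AKO mice Cre was driven by the Adiponectin promoter, which is active in adipocytes, and both groups had been in the cold, so that no sample was taken at a warmer temperature. Each sample held RNA of 2 mice pooled by genotype. The age and sex of these animals are not given in the sources used here.

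The values are normalized counts, namely reads per gene divided by a factor for the sample's depth, and each sample had between 17570335 and 18373707 reads on the listed genes. Nrg4 was at 3092 to 3128 normalized counts in control and 2577 to 2691 in AKO samples, or -0.24 as a log2 fold change, with an adjusted p of 0.298 (limma, Benjamini-Hochberg). Counts per gene do not show whether the remaining reads came from the deleted part of the gene. The samples differed in RNA of neighbouring tissues. The 18 lymph node genes of a list drawn up after values had been seen (genes of B cells, T cells and high endothelial venules, the chemokine gene Ccl19 and the scavenger receptor gene Marco) summed to 2064 in control 1 and 2990 in AKO 2, and to between 207 and 277 in the other 4 samples. Glycam1, a mucin of high endothelial venules, was at 87.3 in control 1 and 232 in AKO 2, at 1.02 in control 3, and at 0 in control 2, AKO 1 and AKO 3. The 16 skeletal muscle genes summed to between 893 and 31028 in the control samples and to between 23017 and 131752 in the AKO samples. The part of either tissue in the results below was not tested, but results are also given without control 1 and AKO 2. In bulk tissue, a lower number of cells of a type and less RNA per cell cannot be told apart.

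The promoters of 3 of the genes are shown because Timd4 differed from the others in its pattern over the samples (described below), Folr2 was close to most of the other genes, and Mrc1 was the nearest of them to Timd4. Each is the 250 bases before the start annotated by RefSeq on GRCm38.p6, 5′ to 3′ on the strand of the gene. Timd4 lies on chr11:46810549-46810798 (plus strand), Folr2 on chr7:101857191-101857440 (minus strand) and Mrc1 on chr2:14229164-14229413 (plus strand). Capitals mark exact matches, on either strand, to TGCTGAC, letters recognized by MAF factors, and to GGAAGT, the core of sites of ETS factors such as PU.1.
Timd4: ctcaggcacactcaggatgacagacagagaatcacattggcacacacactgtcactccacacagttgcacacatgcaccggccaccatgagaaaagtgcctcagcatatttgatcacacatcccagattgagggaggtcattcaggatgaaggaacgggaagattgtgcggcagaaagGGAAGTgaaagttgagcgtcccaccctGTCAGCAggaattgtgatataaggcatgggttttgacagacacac
Folr2: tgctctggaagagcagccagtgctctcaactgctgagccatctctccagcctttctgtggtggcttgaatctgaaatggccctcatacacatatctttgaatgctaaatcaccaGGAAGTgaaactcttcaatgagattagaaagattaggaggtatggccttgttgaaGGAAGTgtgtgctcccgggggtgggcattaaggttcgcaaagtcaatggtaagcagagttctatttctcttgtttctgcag
Mrc1: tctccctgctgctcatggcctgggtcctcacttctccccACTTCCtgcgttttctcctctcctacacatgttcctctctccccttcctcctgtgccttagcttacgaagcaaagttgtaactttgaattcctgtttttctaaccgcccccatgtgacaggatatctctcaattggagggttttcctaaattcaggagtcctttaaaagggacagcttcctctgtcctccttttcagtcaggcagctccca

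Of the 10 genes, 8 had a promoter in the RefSeq table (Lyve1 and Clec10a had none), and Folr2 and F13a1 had 2 each. TGCTGAC was present in 3.81% of 32851 promoters and, among the 8 genes, in Timd4 alone, beginning 45 bases before the start. GGAAGT was present in 19.7% of promoters and in 5 of the 8 genes (F13a1, Folr2, Mgl2, Mrc1 and Timd4). GAGGAAGT, the longer PU.1 sequence, which contains GGAAGT, was in 2.44% of promoters and in none of the 8. The other sequences searched were TGCTGA, contained in TGCTGAC (16.1% of promoters; Folr2 and Timd4), TGACTCA of AP-1 (4.46%; Folr2), TGACGTCA of CREB (1.55%; none), TTCCTC (23.3%; Cbr2, F13a1, Mgl2 and Mrc1) and TATAAA (12.4%; none). The sequences and the window were chosen with matches in view, so these shares are descriptions of the promoters and no test was made.

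Timd4 was at 129.5, 117.2 and 130.1 normalized counts in control 1, 2 and 3 and at 177.7, 252.9 and 172.6 in AKO 1, 2 and 3. The 3 AKO samples all lay above the 3 control samples, and AKO 2 stood above the other two. The means were 126 ± 7.26 and 201 ± 45.0 (SD, n = 3), a 1.57-fold difference (log2 fold change 0.65; its standard error, SE, was 0.16). The SD of the control samples was below the Poisson counting error at that mean, 11.2, and therefore understates the error. Timd4 did not pass the test over all genes, with an adjusted p of 0.324 in limma, 0.309 in edgeR and 0.0864 in DESeq2 (Benjamini-Hochberg in each). In a 2-sided exact permutation test of the 6 samples p was 0.1, the smallest that 3 samples against 3 can give. Timd4 is on chr11:46810800-46844332 (plus strand) of GRCm38.

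None of the 10 genes passed the threshold of an adjusted p under 0.05 in limma, where 0.0144% of all genes tested passed, nor in edgeR, nor in DESeq2, where 0.241% were called higher in AKO. At an unadjusted p under 0.05, 5 of the 10 genes were higher in AKO in limma, against 4.41% of all genes. The count was 7 in edgeR, against 5.17% of all genes, and 7 in DESeq2, against 2.97%. All 10 had a higher mean in AKO, against 51.9% of all genes with a log2 fold change above 0, and their median log2 fold change was 0.41, against 0.01 for all genes. Timd4 was the only one of the 10 in which every AKO sample lay above every control sample, a pattern seen in 6.14% of all genes. The adjusted p-values of the 10 ran from 0.324 to 0.756 in limma.

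**Figure D1:**
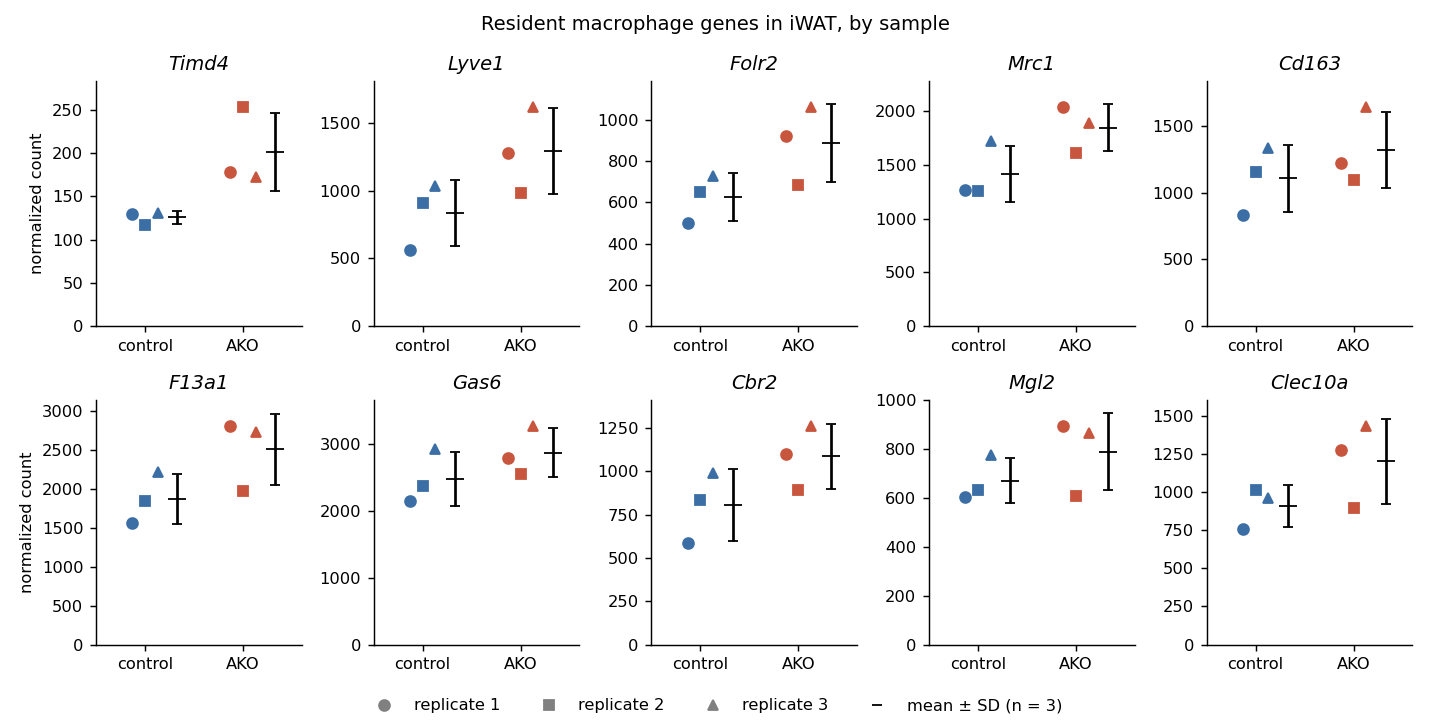
Normalized counts of the 10 resident macrophage genes in each sample (y axis, from 0; circles, squares and triangles are replicates 1, 2 and 3), with the mean ± SD of 3 samples beside each group. Timd4 separates the groups and peaks in AKO 2, whereas AKO 2 is the lowest AKO sample for each of the other 9 genes.

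Among the receptors for extracellular ligands, Lyve1, a hyaluronan receptor of perivascular macrophages that lymphatic endothelium also expresses (chr7:110850607-110863239, minus strand), was at 562, 911.9 and 1032 normalized counts in control 1 to 3 and at 1276, 982.2 and 1616 in AKO 1 to 3. Control 1 was far below the other two control samples, and AKO 2 lay between control 2 and control 3. The log2 fold change was 0.65 (SE 0.25, adjusted p = 0.516 in limma). Without control 1 it was 0.38. Of the 9 lymphatic endothelial genes tested, 7 had a log2 fold change above 0 and 2 below, with a median of 0.15, and none passed in limma. Flt4, a growth factor receptor of these vessels, was at -0.10, Nrp2 at -0.03, Thy1 at 0.08 and Fgl2 at 0.22, these being the 4 most highly expressed. Their part in the difference of Lyve1 was not tested.

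Folr2, a folate receptor of resident macrophages (chr7:101839988-101857194, minus strand), had 497.7, 649.5 and 728.9 normalized counts in control and 920.9, 684.4 and 1061 in AKO samples. AKO 1 and AKO 3 exceeded every control sample, and AKO 2 fell between control 2 and control 3. The log2 fold change was 0.50 (SE 0.19), with adjusted p-values of 0.506 in limma and 0.159 in DESeq2. In the GENCODE M21 annotation 63.1% of the exon bases of Folr2 lie opposite Gm10602 on the other strand. Whether the counting used strand is not given in the sources used here, so reads of that gene cannot be told apart from those of Folr2.

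Mrc1, the mannose receptor (chr2:14229392-14332057, plus strand), had 1264, 1260 and 1719 normalized counts in control and 2036, 1607 and 1893 in AKO samples. Only AKO 2 overlapped the control samples, lying below control 3. The log2 fold change was 0.39 (SE 0.14, adjusted p = 0.498 in limma). Cd163, the scavenger receptor for hemoglobin bound to haptoglobin (chr6:124304656-124330527, plus strand), had 835.9, 1158 and 1331 normalized counts in control and 1224, 1095 and 1640 in AKO samples. Here AKO 3 alone exceeded every control sample. The log2 fold change of Cd163 was 0.26 (SE 0.20, adjusted p = 0.756 in limma), and without control 1 it was 0.07.

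Mgl2 and Clec10a encode the paired galactose-type lectins of macrophages and dendritic cells and are neighbours on chromosome 11 (chr11:70130329-70137550 and chr11:70156197-70170834, both plus strand). Reads from sequence they share could be placed in either gene, so the longest shared stretch of their annotated transcripts is shown. It is 183 bases long, is coding in both genes, and spans chr11:70136337-70136699 in Mgl2 and chr11:70169822-70170189 in Clec10a, introns included.
Mgl2 and Clec10a: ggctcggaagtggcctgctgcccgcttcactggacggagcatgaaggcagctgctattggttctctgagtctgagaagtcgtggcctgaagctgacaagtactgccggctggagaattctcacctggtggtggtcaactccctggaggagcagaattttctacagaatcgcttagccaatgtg

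Of all stretches of 50 bases, 270 were shared, which is 12.2% of those of Mgl2 and 8.49% of those of Clec10a. Mgl2 had 604.1, 629.1 and 775.6 normalized counts in control and 893.1, 608.2 and 862.9 in AKO samples, with AKO 2 lower than 2 of the control samples. The log2 fold change was 0.22 (SE 0.16, adjusted p = 0.734 in limma). Clec10a had 756.6, 1013 and 959.6 in control and 1279, 894.3 and 1437 in AKO samples, and again AKO 2 was lower than 2 of the control samples. Its log2 fold change was 0.39 (SE 0.18, adjusted p = 0.571 in limma). The sum of both genes, which does not depend on how shared reads were divided, was 1579 ± 195 in control and 1991 ± 428 in AKO samples (SD, n = 3; 2-sided exact permutation p = 0.3).

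The remaining genes encode secreted or enzymatic proteins. F13a1, the transglutaminase subunit of coagulation factor XIII (chr13:36867178-37050244, minus strand), had 1561, 1842 and 2213 normalized counts in control and 2814, 1981 and 2733 in AKO samples. AKO 1 and AKO 3 lay above all control samples and AKO 2 did not. Its log2 fold change was 0.42 (SE 0.16, adjusted p = 0.522 in limma). Cbr2, a carbonyl reductase (chr11:120729489-120732114, minus strand), had 584, 835.6 and 993.2 in control and 1101, 893.3 and 1263 in AKO samples. AKO 1 and AKO 3 again lay above all control samples and AKO 2 did not, with a log2 fold change of 0.45 (SE 0.20, adjusted p = 0.551 in limma). Gas6, a secreted bridge between phosphatidylserine and the TAM receptors (chr8:13465374-13494490, minus strand), had 2147, 2378 and 2930 in control and 2794, 2557 and 3280 in AKO samples. AKO 3 alone was above all control samples, and the log2 fold change of Gas6 was 0.22 (SE 0.13, adjusted p = 0.674 in limma).

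The other 9 genes shared an order of samples that Timd4 did not have. Control 1 was the lowest sample in 8 of the 9 genes, and AKO 2 was the lowest AKO sample in all 9, below control 3 in each. AKO 3 exceeded every control sample in all 9, and AKO 1 did so in 7. For Timd4, AKO 2 was the highest sample and AKO 3 the lowest of the AKO samples. A root-mean-square difference of the log2(normalized count + 1) values over the 6 samples, each gene centred on its own mean, was used as a measure of likeness. By it, Folr2 and Cbr2 were 0.08 apart, and Folr2 ranked 6 of 13854 genes by nearness to Cbr2. Lyve1 was nearest to Cbr2 (0.13), F13a1 to Folr2 (0.09), Mrc1 to F13a1 (0.10), Clec10a to Folr2 (0.10), Mgl2 to F13a1 (0.11), and Cd163 and Gas6 to each other (0.12). Timd4 was the farthest of the set from each of the other 9. Its nearest was Mrc1 at 0.33, which ranked 1851 of 13854 genes by nearness to Timd4.

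**Figure D2:**
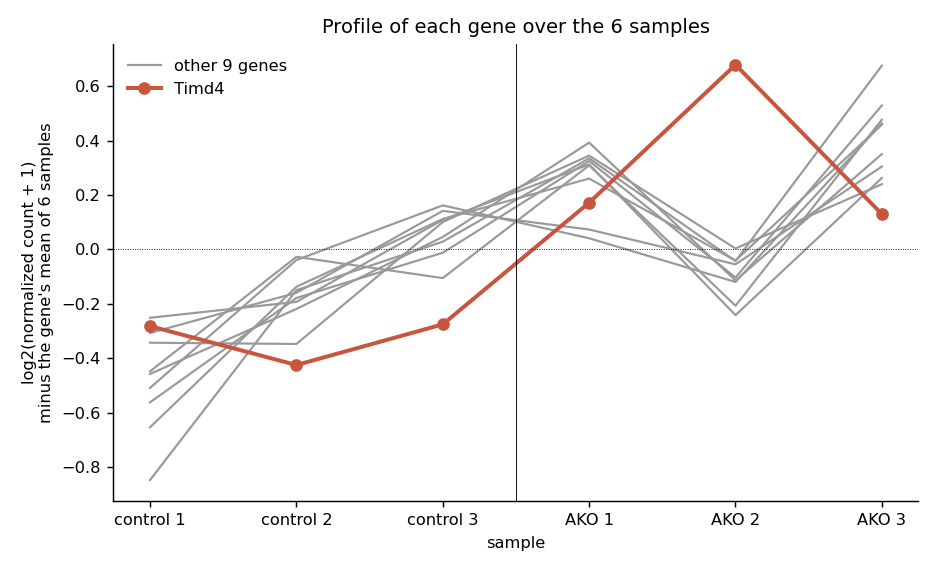
Level of each gene in each sample (y axis, log2(normalized count + 1) minus the mean of the gene over the 6 samples; the vertical line separates control from AKO samples, and lines join the values of 1 gene without implying an order of replicates). Timd4 is highest in AKO 2, where each of the other 9 genes has its lowest AKO value.

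The 5 genes whose profile was nearest to that of Timd4 were Elovl7 (0.075), a fatty acid elongase, Wisp2 (0.113), Wdr78 (0.12), Mcm6 (0.129), part of the replicative helicase, and Top2a (0.13), a topoisomerase of dividing cells. Each had its highest value in AKO 2, as Timd4 did. Because they were picked by likeness over these same 6 samples, that peak and a similar fold change follow from the choice. Top2a, for example, had 105.4, 104.3 and 121.0 normalized counts in control and 152.7, 176.7 and 142.7 in AKO samples. Their log2 fold changes ran from 0.47 for Mcm6 to 0.60 for Wdr78, and none passed the test (adjusted p from 0.293 to 0.540 in limma).

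Relative to the mean log2 level of the other 9 genes, Timd4 lay at -2.73, -3.19 and -3.27 in control 1, 2 and 3 and at -3.03, -2.15 and -3.22 in AKO 1, 2 and 3. On this log2 scale the highest sample of each genotype was the one with lymph node RNA, AKO 2 and control 1, and the groups overlapped. In control 1 Timd4 itself was at 129.5 normalized counts, between control 2 (117.2) and control 3 (130.1). Its relative level was high there because the mean of the other 9 genes was lowest in control 1 (9.75). Macrophages of lymph node sinuses are also known to carry Timd4, but whether they added to the Timd4 counts here was not tested. Marco, a scavenger receptor of such macrophages, had 83.3 normalized counts in control 1 and 131 in AKO 2, against 3.05 to 10.6 in the other 4 samples. It was put in the lymph node list after its values were seen, so this pattern is a description only. Per 100 counts of Csf1r, the growth factor receptor of macrophages, Timd4 had 7.61, 6.38 and 5.55 in control and 6.09, 12.3 and 6.25 in AKO samples. Per 100 counts of Folr2 the Timd4 values were 26.0, 18.0 and 17.9 against 19.3, 36.9 and 16.3. By both ratios AKO 2 was the highest sample and control 1 the next, and AKO 1 and AKO 3 lay close to control 2 and control 3. In control 1 both denominators, Csf1r (1702) and Folr2 (497.7), were the lowest of all samples.

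**Figure D3:**
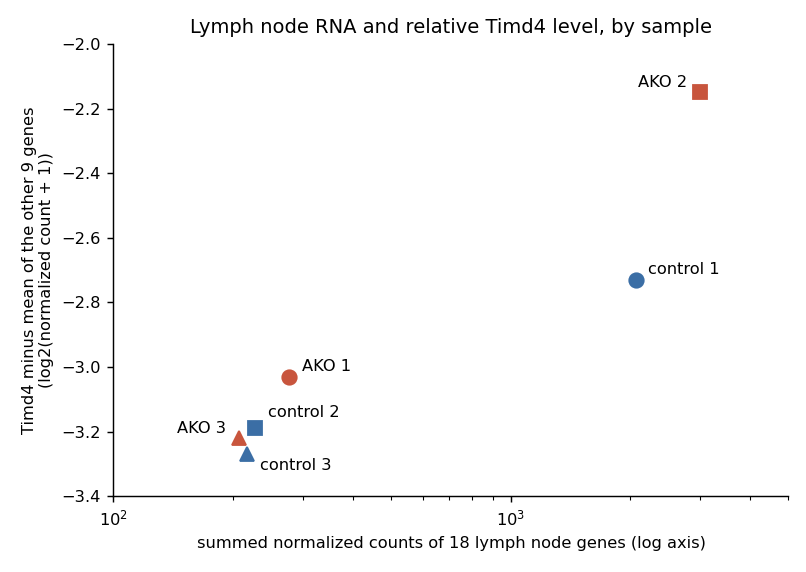
Timd4 minus the mean of the other 9 genes (y axis, log2(normalized count + 1)) against the summed normalized counts of 18 lymph node genes (x axis, log scale), 1 point a sample, blue for control and red for AKO. AKO 2 and control 1 stand apart at 2990 and 2064 counts and have the highest relative Timd4 levels, -2.15 and -2.73, whereas the other 4 samples lie between -3.27 and -3.03. In control 1 the mean of the other 9 genes is the lowest of all samples, and Timd4 itself (129.5) is not above control 3 (130.1).

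Leaving out control 1 and AKO 2, an alternative added after the data were seen, left 2 samples a group. Timd4 then had a log2 fold change of 0.50 (SE 0.14, adjusted p = 0.421 in limma), inside the range of the other 9 genes, from 0.19 for Cd163 to 0.57 for Lyve1. In 8 of the 10 genes (all but Cd163 and Gas6) both AKO samples lay above both control samples, a pattern that 21.6% of all genes had. The same 8 had an unadjusted p under 0.05 in limma, against 4.81% of all genes that did so and were higher in AKO. No gene of the whole table passed the adjusted threshold with these 4 samples, and the adjusted p-values of the 10 ran from 0.349 to 0.701. Relative to the other 9 genes, Timd4 then differed by 0.11 between genotypes on the log2 scale, against 0.27 with all 6 samples.

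**Figure D4:**
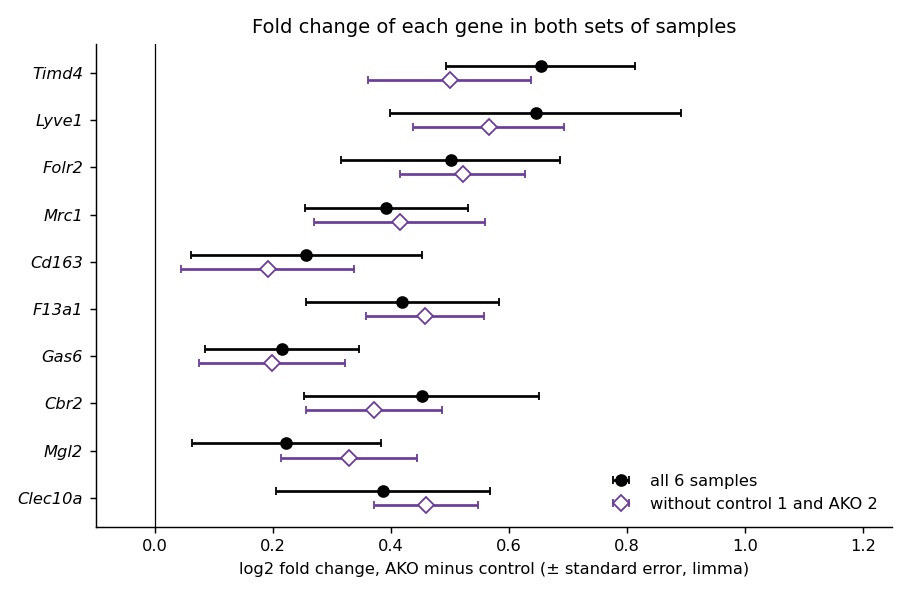
Log2 fold change of each gene, AKO minus control (x axis; bars are standard errors in limma), with all 6 samples (filled circles) and without control 1 and AKO 2 (open diamonds). All 20 values lie above 0, and Timd4 moves from 0.65 to 0.50 when both samples are left out.

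Genes common to all macrophages also had higher means in AKO. Of 18 such genes, 17 had a log2 fold change above 0 and none passed limma's threshold, with a median of 0.34. At an unadjusted p under 0.05 in limma, 7 were higher, against 4.41% of all genes, and none lower. In 5, every AKO sample lay above every control sample, against 6.14% of all genes. Csf1r had 1702, 1838 and 2345 normalized counts in control and 2917, 2055 and 2762 in AKO samples, with a log2 fold change of 0.39 (adjusted p = 0.527 in limma). The complement gene C1qa (0.39), its partner C1qb (0.38) and the lysozyme gene Lyz2 (0.35) had log2 fold changes close to that of Csf1r, and none passed. AKO 2 was the lowest AKO sample for all 4. Ctss, a lysosomal protease named after its values were seen, was the 1 gene of this list called by DESeq2 (log2 fold change 0.41 and adjusted p = 0.263 in limma, adjusted p = 0.0301 in DESeq2).

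With the mean log2 level of these 18 genes as the reference, no gene of the set separated the genotypes. The reference itself differed by 0.32 between genotypes (mean log2 level 9.22 ± 0.20 in control and 9.54 ± 0.16 in AKO, SD, n = 3). Timd4 differed by 0.33 relative to it and Lyve1 by 0.32, and the other 8 by between -0.11 for Gas6 and 0.18 for Folr2. In the 4 samples low in lymph node RNA the relative differences were 0.15 for Timd4 and 0.22 for Lyve1.

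Other genes of resident macrophages mostly had higher means in AKO. Among 22, 20 had a log2 fold change above 0 and 2 (Fcgrt and Slc40a1) below, and none passed limma's threshold. At an unadjusted p under 0.05 in limma, 4 were higher, against 4.41% of all genes, and none lower. The median log2 fold change was 0.32. The 4 most highly expressed were Sepp1, the selenium carrier (0.07), Fcgrt, the neonatal Fc receptor (-0.18), the transcription factor gene Klf4 (0.15) and the scavenger receptor Stab1 (0.14). For Fcgrt, each of the AKO samples (4730 to 5599) lay below each control sample (5839 to 6126), with an adjusted p of 0.556 in limma. Maf, a transcription factor of resident macrophages singled out after its values were seen, had 1273, 1117 and 1337 normalized counts in control and 1738, 1340 and 1708 in AKO samples, which did not overlap (log2 fold change 0.35, adjusted p = 0.472 in limma). Cd209b, a lectin also known from lymphoid organs, named after its values were seen, was the 1 gene of this list called by DESeq2 (adjusted p = 0.0426, and 0.414 in limma). It had 282.0, 238.7 and 218.6 normalized counts in control and 303.5, 530.1 and 380.8 in AKO samples, with its highest values within each genotype in control 1 and AKO 2, as for the lymph node genes.

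Of 20 tested genes for recognition of phosphatidylserine and uptake of dying cells, the pathway of Timd4 and Gas6, 18 had a log2 fold change above 0, none passed limma's threshold, and the median was 0.13. Axl, a TAM receptor for Gas6, had 2427, 3314 and 3233 normalized counts in control and 3907, 3510 and 3947 in AKO samples, which did not overlap (log2 fold change 0.35, adjusted p = 0.492 in limma). Mertk, the TAM receptor of macrophages, named after its values were seen, had a log2 fold change of 0.12 (adjusted p = 0.831), and its groups overlapped. Mfge8, another phosphatidylserine bridge, differed by 0.01, the receptor Lrp1 by 0.03 and the cytoskeletal switch Rac1 by 0.02. Among 22 endocytic and scavenger receptors none passed in limma, 20 had a log2 fold change above 0, and the median was 0.34. The other 2 were Cd36 (-0.11) and Scarb1 (-0.06), lipid receptors of many cell types.

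Genes of recruited monocytes and of macrophages laden with lipid also had no call in limma. Of 9 tested monocyte genes, the chemokine receptor Ccr2 had a log2 fold change of 0.06 and Itgam of 0.40, 8 of the 9 were above 0, and the median was 0.40. Of the 12 genes of lipid-associated macrophages, 10 were above 0, with a median of 0.18. Lgals3 (0.42) was higher and Lipa, lysosomal acid lipase (-0.23), lower in every AKO sample than in any control sample, with adjusted p-values of 0.519 and 0.363 in limma. Ctsl (0.135) and Fabp5 (0.06), also among the most highly expressed of the list, overlapped between groups. DESeq2 called 2 of these 12 higher, Gpnmb (adjusted p = 0.00135, and 0.240 in limma) and Mmp12 (adjusted p = 0.0474, and 0.447 in limma), both named after their values were seen. Gpnmb, a glycoprotein of lysosome-rich macrophages, had 386.4, 392.5 and 508.3 normalized counts in control and 593.5, 730.3 and 719.2 in AKO samples. Mmp12, macrophage elastase, had 23.1, 89.3 and 32.5 in control and 79.7, 160 and 164 in AKO samples.

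The genes of alternative activation, a state with which Mrc1, Mgl2 and Clec10a are often grouped, had a median log2 fold change of 0.09 over 15 genes tested, of which 12 were above 0 and none was called. The interleukin 4 receptor gene Il4ra differed by 0.04, the factor it activates, Stat6, by 0.05, and Retnla, a secreted product of this state, by 0.29. Tgm2, the most highly expressed gene of the list, differed by -0.047. Retnla was lowest in control 1, like 8 of the 9 genes other than Timd4, and as in all 9 its lowest AKO value was in AKO 2. It had 2980, 3589 and 4095 normalized counts in control and 4820, 3214 and 5196 in AKO samples. Among 16 genes of growth factors and transcription factors of macrophages the median was 0.13 and 12 were above 0. Cebpb, named after its values were seen and the 1 gene of this list called by DESeq2 (lower in AKO, adjusted p = 0.0354), had a log2 fold change of -0.57 and an adjusted p of 0.414 in limma.

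Markers of other cell types were compared as background. The 12 dendritic cell genes, a cell type that also carries Mgl2 and Clec10a, had a median log2 fold change of 0.18, with 9 above 0. The median was 0.25 for the 11 fibroblast genes, with 11 above 0, -0.09 for the 10 blood endothelial genes, with 1 above 0, and -0.12 for the 11 adipocyte genes, with 1 above 0. None of these genes passed in limma, and DESeq2 called Dpp4 alone among them (adjusted p = 0.00844, and 0.315 in limma), a peptidase listed for both dendritic cells and fibroblast progenitors. The adipocyte lipase gene Pnpla2 lay between 85119 and 95513 normalized counts in AKO and between 102695 and 104633 in control samples. Its log2 fold change was -0.216 (adjusted p = 0.568 in limma). For the other most highly expressed adipocyte genes, Fabp4 (-0.171), Lpl (-0.145) and Cfd (-0.116), the groups overlapped.

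**Figure D5:**
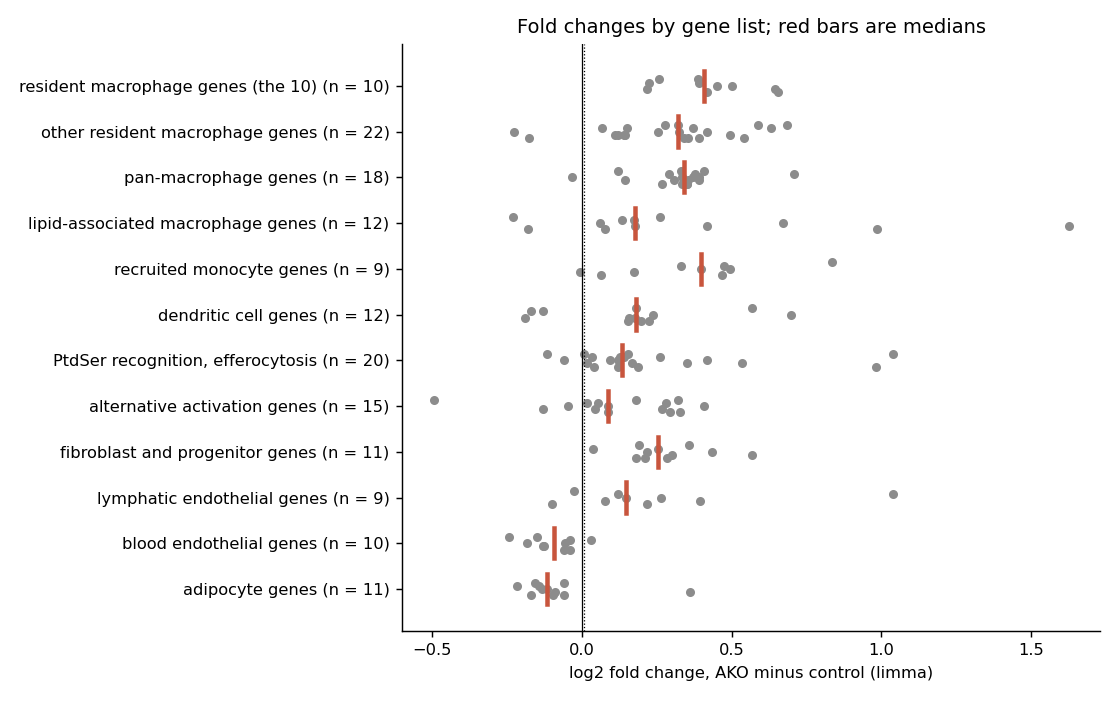
Log2 fold changes, AKO minus control (x axis), of the tested genes of 12 lists, 1 grey point a gene, with the median of each list as a red bar; the dotted line is the median of all genes tested, 0.01. The medians of the resident, other resident and common macrophage genes lie at 0.41, 0.32 and 0.34, and those of the blood endothelial and adipocyte genes at -0.09 and -0.12.

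To compare levels between genes, normalized counts were divided by the length of the merged exons in kilobases. In control samples Gas6 was highest at 975 ± 158 per kilobase (SD, n = 3), followed by Cbr2 at 606, Folr2 at 405, Mgl2 at 320, Clec10a at 314, Lyve1 at 286, F13a1 at 278, Mrc1 at 222 and Cd163 at 203. Timd4 was lowest at 57.8 ± 3.34 per kilobase. In AKO samples Gas6 (1129 per kilobase) was again first and Timd4 (92.5) last, and Lyve1 moved from the sixth place to the fourth. In both groups only the gaps between Gas6 and Cbr2 and between Cd163 and Timd4 exceeded the spread over samples, and all other neighbours in the order had overlapping ranges. With the longest transcript as the length, F13a1 (474 per kilobase in control) moved up to the fourth place.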

How the data were processed

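Inguinal fat RNA of 6 samples was grouped by the genotype in the labels. STAR was used by the authors for alignment to GRCm38.p6, featureCounts with GENCODE M25 for counting and DESeq2 for scaling. The deposited signal is the read count per gene divided by a size factor, not by gene length. The deposited table also gives log2 fold changes and p-values of the authors' own comparison, which were not used. How the listed genes were selected and whether strand was used are not given in the sources used here.

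limma (version 3.58.1, in R 4.3.3) was run on log2(value + 1) with a variance trend for 13855 genes (mean normalized count 10 or more), at an adjusted p under 0.05 (Benjamini-Hochberg). The design had named edgeR for raw counts, and limma was used because values were normalized. Dividing by the smallest step of each sample (0.960 to 1.08) gave whole reads for 100% of values (largest deviation 5.75e-05), which were tested with edgeR (4.0.16, 3 genes called), DESeq2 (1.42.0, 149 called) and limma-voom. Fold changes on log2(value + 1) understate those of low genes, but every gene of the set had at least 109 reads in each sample. Counting error, which depth sets, is largest relative to the value for low genes such as Timd4. Samples of the same group differed beyond sampling noise. Nothing shows that samples of 1 group came from separate cages or litters, so p-values measure the spread between these pools. The tests were tried on simulated data.

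The 10 genes, the gene lists and the tests were chosen with earlier results of these data known, and the lymph node list and its alternative were added after the data were seen. Genes named are the 10, Nrg4, genes among the 4 most highly expressed of the lists, and the 5 nearest to Timd4. Not all of those 4 are printed, and for the fibroblast, blood endothelial, skeletal muscle and lymph node lists none is. Glycam1, Ccl19, Marco, Mertk, Cebpb, Cd209b, Maf, Slc40a1, Ctss, Gpnmb and Mmp12 were named after their values were seen. Of the listed symbols, 15894 (96.1%) matched GENCODE M21, an earlier annotation of GRCm38, which gave positions and lengths. Alternatives were other pseudocounts, filters, tests, scalings and thresholds, the replicate number as a block, leaving out each sample, and another gene length.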

Additional observations from a re-analysis of the deposited data

How the results depend on the processing

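All 10 genes kept a positive log2 fold change and none was called under any of the 17 alternatives, which covered pseudocounts of 0.1 and 10, filters, edgeR, DESeq2, limma-voom, TMM factors with and without muscle genes, the replicate block, each sample left out and both lymph node samples left out. Adjusted p-values of Timd4 ran from 0.0864 (DESeq2) to 0.635 (without control 2), and none of the 10 was below 0.05 or, in limma, below 0.1. Over the fits that leave out 1 sample each, Timd4 ran from 0.48 (without AKO 2) to 0.75 (without AKO 3), Mrc1 from 0.32 to 0.54, Folr2 from 0.35 to 0.68, F13a1 from 0.30 to 0.58, and the summed Mgl2 and Clec10a counts from 0.20 (without AKO 3) to 0.51 (without AKO 2). The value was lower by more than 1.5 times for Lyve1 (0.38), Cd163 (0.07), Gas6 (0.12) and Cbr2 (0.24) without control 1, for Mgl2 (0.12) without AKO 1, and for Cd163 (0.09), Gas6 (0.12), Mgl2 (0.15) and Clec10a (0.24) without AKO 3. It was higher by more than that for Cd163 (0.40) and Gas6 (0.34) without control 3 and for Mgl2 (0.40) and Clec10a (0.59) without AKO 2. The count of the 10 genes with an unadjusted p under 0.05 ran from 1 (without control 1, AKO 1 or AKO 3) to 8 (without AKO 2) over these fits and was 8 without both lymph node samples. Without both, 4.81% of all genes were under 0.05 and higher in AKO in limma. That share was not worked out for the fits that leave out 1 sample, so their counts have no background beside them. Deviations of same-numbered samples from their group means correlated at 0.135, -0.351 and 0.24, so the numbers were not taken to pair the samples. With the replicate block the log2 fold change of Timd4 was 0.65 (adjusted p = 0.244 in limma), and 7 of the 10 genes had an unadjusted p under 0.05. For that count too the share of all genes was not worked out. Over all genes, limma called 2, against 149 in DESeq2, 6 with at least 10 reads required in every sample, and 0 to 3 with 1 sample left out. Each group had 3 pools, which limits the precision of every value.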
